A study of Homo sapiens with 60 samples.

Results

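The 48 genes described here act in DNA replication and S phase: origin licensing, the MCM helicase and its activation, the replicative polymerases, the sliding clamp and its loader, Okazaki fragment processing, nucleotide supply, chromatin assembly, S phase control and the cyclin E and E2F regulators. They were chosen by symbol from the 60675 gene rows of the count table, and each symbol matched 1 row. Their RNA was sequenced from SW1783, a human cell line established from an astrocytoma. The cells had been kept for 24 h with an ethanol extract, of 1 of 6 herbs or of 1 of 2 multi-herb formulas, or with the DMSO vehicle. Coptidis Rhizoma was given at 0.56, 2.8 and 14 µg/mL and Bupleuri Radix at 8.4, 42 and 210 µg/mL. The formulas Banhasasim-tang and Yijung-tang were given at 20, 100 and 500 µg/mL, as were the herbs Aconiti Lateralis Radix Preparata, Cimicifugae Rhizoma, Zizyphi Fructus and Citri Unshius Pericarpium. The high dose was the IC20, a concentration set by a limited loss of viability, where that lay under 500 µg/mL, as for Coptidis and Bupleuri. Citri, Cimicifugae, Bupleuri and Aconiti had 3 libraries per dose, Coptidis, Zizyphi and Yijung-tang 2, Banhasasim-tang 1, and the vehicle, 0.1% DMSO per the labels of the samples, had 3. Of 8 astrocyte markers, GFAP, S100B, AQP4, ALDH1L1 and SLC1A2 reached at most 0.565 CPM (read counts scaled to a common library size) in any library kept for the tests or described singly, while VIM lay between 3488 and 8040, SOX9 between 50.01 and 80.4 and SLC1A3 between 1.91 and 39.5 CPM. Markers of other cell types were mixed in the same way. MOG and MAG (oligodendrocytes), AIF1, ITGAM and CX3CR1 (microglia and leukocytes), CDH5 and CLDN5 (endothelium) and EPCAM and CDH1 (epithelium) reached at most 0.278 CPM. KRT18 (epithelium) reached 245.7, SYT1 and SNAP25 (neurons) 72.7 and 37.5, KDR (endothelium) 38.03, PTPRC and CSF1R (leukocytes) 14.3 and 5.34 and MBP (oligodendrocytes) 11.9 CPM.

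Replication starts from origins that are licensed in G1, when the origin recognition complex, CDC6 and CDT1 load the ring-shaped MCM helicase onto DNA. At the start of S phase, cyclin E with CDK2 and the kinase CDC7 turn the loaded rings into active helicases that also hold CDC45 and GINS, and polymerases, clamp and nucleotide enzymes then copy the DNA. Most of these genes are known targets of E2F transcription factors, which RB restrains outside late G1 and S phase, so their RNA is a common readout of how many cells of a culture are cycling. In bulk RNA, fewer cells in S phase and less RNA per cell cannot be told apart.

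All 48 genes had enough reads to be tested, among 17680 genes in all. The libraries kept held 15996157 to 30990264 counts each, and the vehicle libraries had the lower end of that range, up to 20858002. The 2 libraries left out diverged in profile from their group mates: Aconiti high replicate 1 with 11329310 counts and Yijung-tang low replicate 1. Against its group mate or mates, a member's log2 difference in these libraries ran between -4.51 (FAM111B) and 1.00 (CDT1) in the Aconiti library and between -2.32 (CCNE2) and 1.56 (CLSPN) in the Yijung-tang library. The tests used 54 libraries of 21 groups in 1 fit. A gene is called changed at an adjusted p under 0.05 from edgeR's quasi-likelihood test, and only called genes are said to have risen or fallen. Values are given as CPM on TMM-scaled library sizes, log2 fold changes carry their standard error, and means their SD. The labels number the libraries as replicates without saying that they came from separate cultures, so p-values measure the spread between these libraries, which may be technical.

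RefSeq promoter windows (GRCh38.p14, 250 bases before to 50 after the annotated start) were found for 41 of the 48 genes. They were searched on both strands for the E2F words TTTCCCGC, TTTCGCGC, TTTGCCGC and TTTGGCGC. At least 1 word stood in 24 of the 41 genes (58.5%), against 1090 of 27305 genes with a window in the whole table (3.99%). The CCAAT box (CCAAT, both strands) stood in 24 of the 41 (58.5%), against 39.72% of all genes, and the CHR word TTTGAA of late cell cycle genes in 1 of the 41 (2.4%), against 18.17%. Windows are shown for CDC6 and E2F1, which did not fall at the high Coptidis dose, and for MCM3, UHRF1, CLSPN and MCM10, which did. Capitals mark the E2F words, and positions count along the gene's strand from the annotated start as base 1, with bases before it negative.
CDC6 (chr17:40287629-40287928, plus strand, word at 8): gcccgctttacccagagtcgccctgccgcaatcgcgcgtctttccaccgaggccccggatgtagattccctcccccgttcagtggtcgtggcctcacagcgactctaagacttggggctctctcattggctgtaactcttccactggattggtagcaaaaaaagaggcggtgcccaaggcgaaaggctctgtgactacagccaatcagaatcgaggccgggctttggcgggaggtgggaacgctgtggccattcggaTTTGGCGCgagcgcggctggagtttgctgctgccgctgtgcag
E2F1 (chr20:33686336-33686635, minus strand, words at -33 and -20): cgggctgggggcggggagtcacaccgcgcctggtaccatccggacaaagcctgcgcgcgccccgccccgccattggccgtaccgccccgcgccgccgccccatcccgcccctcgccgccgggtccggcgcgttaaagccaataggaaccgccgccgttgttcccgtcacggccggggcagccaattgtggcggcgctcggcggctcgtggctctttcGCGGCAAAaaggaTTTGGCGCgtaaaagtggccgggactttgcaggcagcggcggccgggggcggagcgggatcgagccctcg
MCM3 (chr6:52284693-52284992, minus strand, words at -174 and -4): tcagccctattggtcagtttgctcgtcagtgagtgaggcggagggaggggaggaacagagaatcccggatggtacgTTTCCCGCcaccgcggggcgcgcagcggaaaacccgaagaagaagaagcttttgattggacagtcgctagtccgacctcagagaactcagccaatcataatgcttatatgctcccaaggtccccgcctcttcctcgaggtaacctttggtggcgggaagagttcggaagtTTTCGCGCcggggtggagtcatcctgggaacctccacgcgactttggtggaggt
UHRF1 (chr19:4909251-4909550, plus strand, word at -14): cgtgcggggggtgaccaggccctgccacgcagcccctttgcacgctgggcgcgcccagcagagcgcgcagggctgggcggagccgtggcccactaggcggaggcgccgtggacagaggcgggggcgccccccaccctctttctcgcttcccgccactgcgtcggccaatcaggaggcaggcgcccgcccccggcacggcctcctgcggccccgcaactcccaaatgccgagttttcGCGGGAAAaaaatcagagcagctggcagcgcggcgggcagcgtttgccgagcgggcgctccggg
CLSPN (chr1:35769929-35770228, minus strand, word at -5): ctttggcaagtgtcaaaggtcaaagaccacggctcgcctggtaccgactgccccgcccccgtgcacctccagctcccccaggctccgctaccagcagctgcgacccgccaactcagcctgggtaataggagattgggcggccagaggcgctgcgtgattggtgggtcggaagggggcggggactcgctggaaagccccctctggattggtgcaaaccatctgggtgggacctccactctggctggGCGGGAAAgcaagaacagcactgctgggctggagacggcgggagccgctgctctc
MCM10 (chr10:13161308-13161607, plus strand, no word): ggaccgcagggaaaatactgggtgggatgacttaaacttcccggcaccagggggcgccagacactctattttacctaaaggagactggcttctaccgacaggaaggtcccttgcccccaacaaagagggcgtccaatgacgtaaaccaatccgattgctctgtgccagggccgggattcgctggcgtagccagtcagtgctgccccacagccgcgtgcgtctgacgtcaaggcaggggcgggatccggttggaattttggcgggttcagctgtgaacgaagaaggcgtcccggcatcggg
The word thus occurs in windows of genes that fell and of genes that did not. At the high against the low Coptidis dose, 21 of the 24 genes with a word fell and 1 rose, with a median log2 fold change of -1.38, and all 17 genes with a window but no word fell, with a median of -0.97. For Bupleuri the medians were -0.35 with a word and -0.30 without. Only the exact words were searched, so a window without a word may hold a related sequence. The windows of MCM10 and CDC6 both hold tttggcgg, which differs from the word TTTGGCGC only in its last base. The split thus does not separate genes with an E2F site from genes without.

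At the high dose of Coptidis, the rhizome known for berberine, nearly all of the replication genes were lower. Against the low dose, 44 of the 48 genes fell and 1, CDC6, rose, where 32.4% of all genes tested fell and 33.2% rose. The median log2 fold change of the 48 was -1.17, against -0.02 over all genes tested. A fall of more than 2-fold was seen for 27 of the 48, against 16.1% of all genes. Summed over the 48, the level was 1434 and 1417 CPM at the high dose, against 2818 and 2847 CPM at the low dose. CDT1, MCM5 and E2F1 were not called, with log2 fold changes of -0.13 ± 0.099, -0.06 ± 0.050 and -0.15 ± 0.072. The share of counts from the mitochondrial rRNA MT-RNR2 also differed between these libraries, at 3.31% and 3.27% at the high dose, 8.46% and 8.44% at the medium dose and 1.86% and 1.74% at the low dose, against 0.819 to 0.882% in the vehicle libraries. Marker lists of other cell types differed too, in both directions. The 5 microglia and leukocyte markers summed to 6.18 and 6.35 CPM at the high dose, against 15.9 and 16.7 CPM at the low dose, with both tested members lower and AIF1, ITGAM and CX3CR1 near 0. The 4 epithelial markers summed to 166.2 and 168.5 CPM at the high dose, against 207.9 and 221.2 CPM at the low dose. Higher sums at the high dose were those of the neuron markers, 82.93 and 86.39 against 71.37 and 72.25 CPM. The oligodendrocyte markers, at 10.52 and 12.08 against 7.593 and 8.184 CPM, were also higher. So were the endothelial markers, at 35.51 and 37.8 against 29.06 and 29.54 CPM. The 8 astrocyte markers, mostly VIM, summed to 8086 and 8103 CPM at the high dose, against 4690 and 4864 CPM at the low dose, with 4 of 5 tested members lower and 1 higher. The part of MT-RNR2 and of these markers in the result was not tested.

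**Figure D1:**
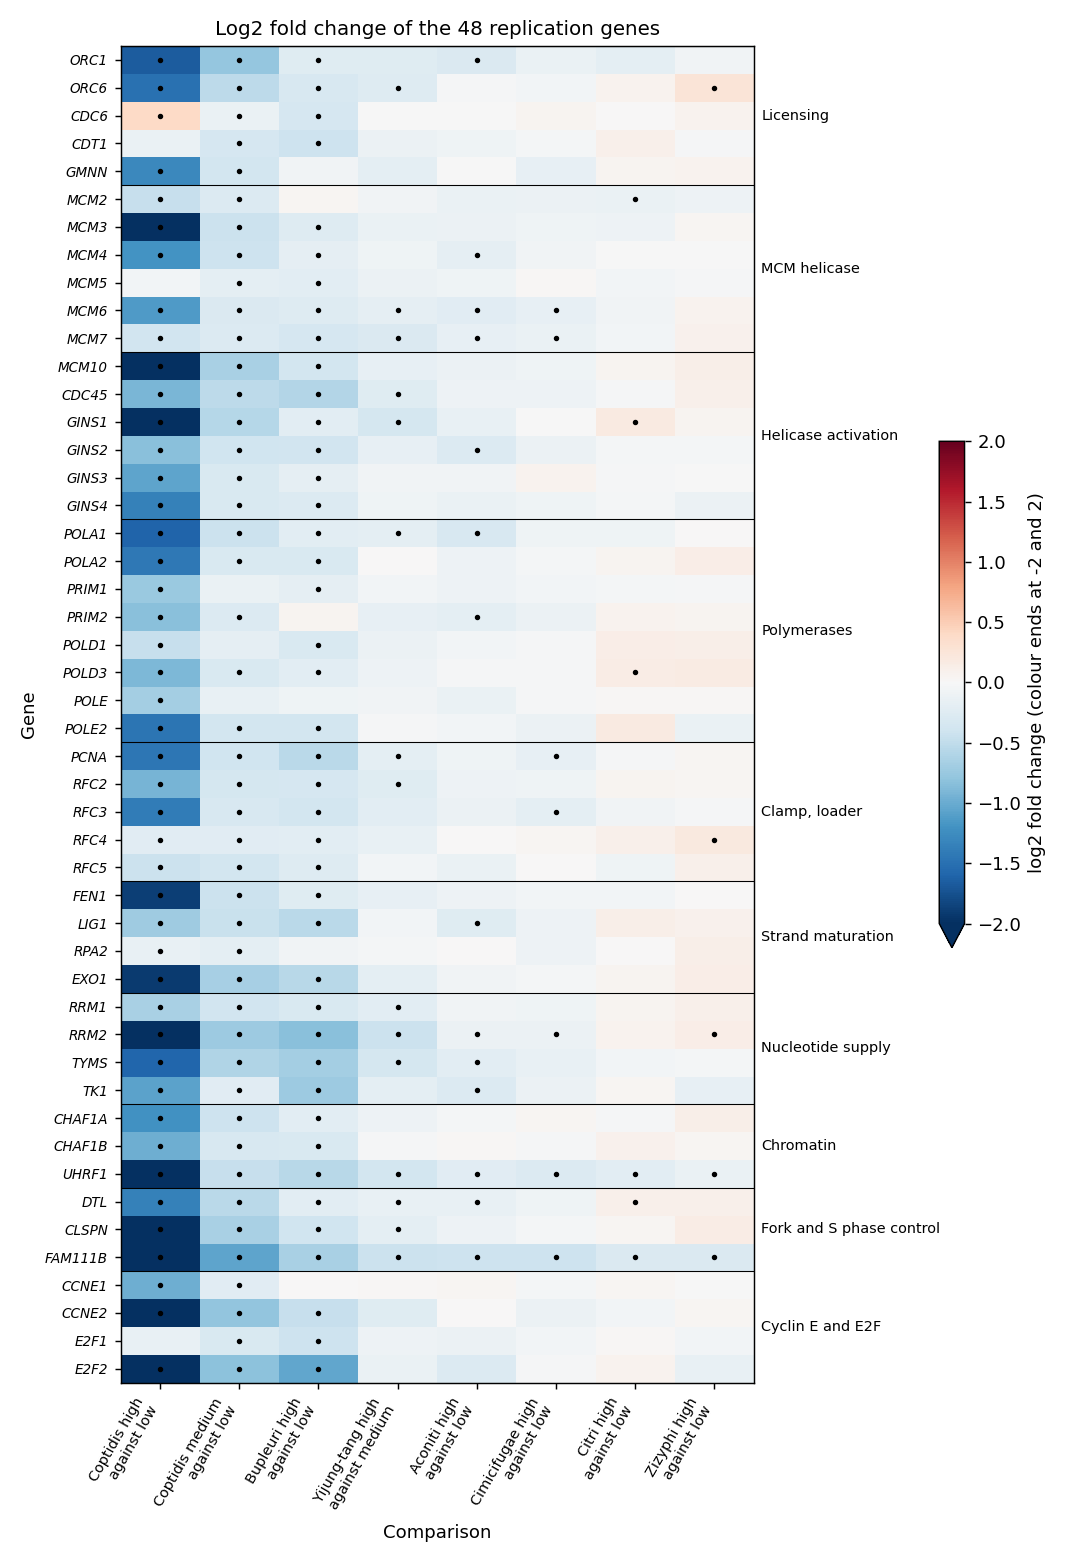
Log2 fold changes of the 48 genes (rows, grouped by role) in 8 comparisons (columns), blue for lower and red for higher, with colours ending at -2 and 2 and a black dot where edgeR called the gene. The first column, Coptidis high against low, is the darkest, with 44 genes lower and only CDC6 called higher.

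Among the licensing genes, 3 of 5 fell and 1 rose at the high Coptidis dose. ORC1, the ATP-binding subunit of the origin recognition complex, was at 5.99 and 6.12 CPM in the high-dose libraries, against 19.6 and 18.6 CPM in the low-dose libraries. ORC6, its smallest subunit, was at 11.9 and 12.9 CPM at the high dose, against 35.2 and 34.6 CPM at the low dose. Both genes were lower in each high-dose library than in either low-dose library, by log2 fold changes of -1.66 ± 0.11 and -1.49 ± 0.080 (edgeR adjusted p = 7.41e-18 and 1.16e-20). GMNN, which encodes geminin, the inhibitor of CDT1, fell (log2 fold change -1.29 ± 0.089). CDC6, the ATPase that loads MCM rings together with CDT1, went the other way: it was at 117 and 115 CPM at the high dose, against 86.8 and 88.2 CPM at the low dose. Its high-dose libraries lay above every low-dose and vehicle library, and its log2 fold change was 0.40 ± 0.043 (edgeR adjusted p = 3.52e-11).

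The subunits of the MCM helicase, which work as 1 ring, had log2 fold changes of different size. MCM3 was at 35.7 and 35.1 CPM at the high Coptidis dose, against 153 and 152 CPM at the low dose, a 4.30-fold fall (log2 fold change -2.10 ± 0.050, edgeR adjusted p = 1.98e-33). MCM4 was at 68.9 and 70.3 CPM at the high dose, against 159 and 160.0 CPM at the low dose, 2.29-fold lower. For both subunits the high-dose and low-dose libraries lay far apart with no overlap. MCM6 fell 2.202-fold, MCM2 1.38-fold and MCM7 1.304-fold, and MCM5 had a log2 fold change of -0.06 ± 0.050, which was not called. Within a ring whose subunits are used in equal number, the log2 fold changes thus ran from -2.10 to -0.06, and differences between genes within a comparison were not tested, here or for the other complexes.

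All 6 genes of helicase activation fell. MCM10, which helps the loaded helicase to become active, was at 5.63 and 5.29 CPM at the high Coptidis dose, against 31.6 and 33.3 CPM at the low dose (log2 fold change -2.57 ± 0.10, edgeR adjusted p = 3.95e-25). GINS1, a subunit of the GINS complex, was at 7.95 and 8.404 CPM at the high dose, against 34.6 and 41.0 CPM at the low dose (log2 fold change -2.21 ± 0.090, edgeR adjusted p = 6.56e-25). The high-dose libraries of both genes lay far below the low-dose libraries. The other GINS subunits fell less, with log2 fold changes of -1.35 ± 0.066 for GINS4, -1.06 ± 0.10 for GINS3 and -0.84 ± 0.089 for GINS2. CDC45, the helicase cofactor, fell by 0.91 on the log2 scale.

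All 8 polymerase and primase genes fell, with a median log2 fold change of -0.87. POLA1, the catalytic subunit of the priming polymerase alpha, was at 23.9 and 19.9 CPM at the high Coptidis dose, against 65.8 and 67.4 CPM at the low dose (log2 fold change -1.60 ± 0.070, edgeR adjusted p = 8.14e-24). POLE2, an accessory subunit of the leading-strand polymerase epsilon, was at 5.89 and 4.898 CPM at the high dose, against 15.3 and 14.6 CPM at the low dose (log2 fold change -1.47 ± 0.11, edgeR adjusted p = 3.4e-16). The high-dose libraries were below the low-dose libraries for both. POLA2, the second subunit of polymerase alpha, fell 2.69-fold, close to POLA1 at 3.04-fold. The catalytic subunits POLE and POLD1 fell less, 1.604-fold and 1.37-fold, as did the primase genes PRIM2 and PRIM1, 1.79-fold and 1.68-fold. POLA2 shares 43662 bases with AP000944.2 and PRIM1 9940 bases with AC117378.1, protein-coding genes annotated on the same strand. Neither of those genes has a row in the count table under its GENCODE v29 identifier, so no reads were assigned to them there. PRIM1 also shares 33 bases with NACA on the same strand. The effect of these overlaps on the counts was not tested. RFC5 and MCM7 overlap WSB2 and AP4M1 on the other strand.

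The sliding clamp and all 4 clamp loader genes fell. PCNA, the clamp that holds polymerases on DNA, was at 49.6 and 48.8 CPM at the high Coptidis dose, against 131 and 138 CPM at the low dose (log2 fold change -1.45 ± 0.072, edgeR adjusted p = 5.98e-22). RFC3, a subunit of the clamp loader, was at 12.1 and 11.7 CPM at the high dose, against 29.5 and 33.4 CPM at the low dose (log2 fold change -1.40 ± 0.095, edgeR adjusted p = 2.68e-17). Neither gene's doses overlapped. The loader subunits spread from RFC3 over RFC2 (-0.94 ± 0.066) and RFC5 (-0.43 ± 0.072) to RFC4, whose log2 fold change was -0.22 ± 0.063 (edgeR adjusted p = 0.00183).

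The 4 genes of strand maturation fell. FEN1, the nuclease that trims Okazaki fragments, was at 16.4 and 18.4 CPM at the high Coptidis dose, against 63.2 and 64.6 CPM at the low dose (log2 fold change -1.88 ± 0.072, edgeR adjusted p = 7.9e-26). EXO1, an exonuclease of mismatch repair and recombination, was at 6.76 and 6.18 CPM at the high dose, against 22.8 and 26.1 CPM at the low dose (log2 fold change -1.91 ± 0.089, edgeR adjusted p = 6.55e-23). Both genes were lower in every high-dose library. LIG1, which seals the fragments, fell 1.64-fold, and RPA2, a subunit of the protein that coats single-stranded DNA, 1.11-fold. FEN1 overlaps FADS2 on the same strand and TMEM258 on the other, so part of its reads could be assigned to either.

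The 4 genes of nucleotide supply fell. RRM2, the S phase subunit of ribonucleotide reductase, was at 49.98 and 45.4 CPM at the high Coptidis dose, against 204 and 204 CPM at the low dose (log2 fold change -2.10 ± 0.040, edgeR adjusted p = 4.6e-37). TYMS, thymidylate synthase, was at 27.8 and 28.8 CPM at the high dose, against 83.1 and 86.5 CPM at the low dose (log2 fold change -1.58 ± 0.081, edgeR adjusted p = 1.74e-21). The doses were apart for both genes. TK1, thymidine kinase, fell 2.098-fold, and RRM1, the large reductase subunit, 1.57-fold, less than its partner RRM2 at 4.28-fold. TYMS shares bases with the antisense genes ENOSF1 and TYMSOS, so its count carries that uncertainty. RRM2 shares bases with AC007240.1 on its own strand, which has no row in the count table under its GENCODE v29 identifier.

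Of the 3 chromatin genes, UHRF1, which brings DNA methylation to newly copied DNA, fell the most. It was at 11.1 and 12.2 CPM at the high Coptidis dose, against 78.1 and 82.8 CPM at the low dose, 6.92-fold lower (log2 fold change -2.79 ± 0.059, edgeR adjusted p = 1.69e-35). CHAF1A, the large subunit of the histone chaperone CAF-1, was at 19.6 and 19.9 CPM at the high dose, against 45.6 and 45.5 CPM at the low dose (log2 fold change -1.21 ± 0.064, edgeR adjusted p = 8.88e-21). No high-dose library reached a low-dose library for either gene. CHAF1B, its partner subunit, fell 1.97-fold, close to CHAF1A at 2.31-fold. CHAF1B overlaps MORC3 on the same strand.

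The largest fall of the 48 was that of FAM111B, a serine protease gene expressed in S phase. It was at 1.19 and 1.503 CPM at the high Coptidis dose, against 30.04 and 26.4 CPM at the low dose, 21-fold lower (log2 fold change -4.39 ± 0.13, edgeR adjusted p = 1.22e-29). Ordered by log2 fold change, FAM111B stood at place 115 from the bottom of the 17680 genes tested. CLSPN, which encodes claspin, the adaptor that lets the fork checkpoint activate CHEK1, was at 9.71 and 10.1 CPM at the high dose, against 51.2 and 50.9 CPM at the low dose (log2 fold change -2.36 ± 0.080, edgeR adjusted p = 5.07e-28). The doses of both genes did not overlap. DTL, part of the ubiquitin ligase that removes CDT1 in S phase, fell 2.56-fold.

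The regulators split. E2F2, an activator E2F, was at 0.929 and 1.002 CPM at the high Coptidis dose, against 6.57 and 7.77 CPM at the low dose (log2 fold change -2.89 ± 0.20, edgeR adjusted p = 6.5e-17). CCNE2, 1 of the cyclin E genes, was at 4.802 and 4.12 CPM at the high dose, against 28.9 and 30.8 CPM at the low dose (log2 fold change -2.74 ± 0.12, edgeR adjusted p = 1.29e-23). The high-dose libraries of both lay well below the low-dose libraries. CCNE1 also fell, with a smaller log2 fold change of -0.97 ± 0.076, and E2F1 was at 44.4 and 41.5 CPM at the high dose, against 49.2 and 46.03 CPM at the low dose, which was not called (edgeR adjusted p = 0.07). CCNE2 overlaps INTS8 and NDUFAF6, which lie on the other strand.

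**Figure D2:**
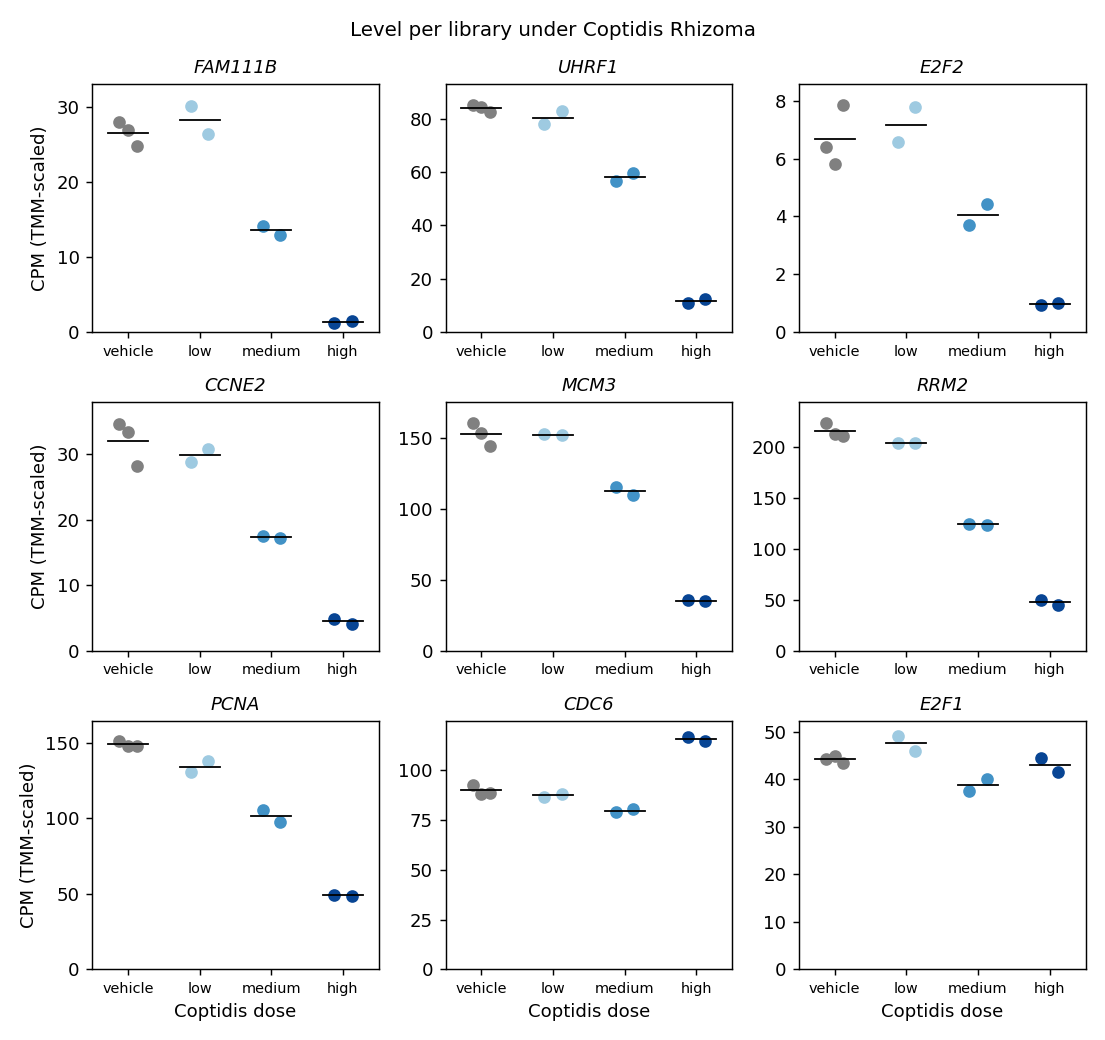
CPM per library (points) and group mean (lines) of 9 genes in the vehicle and at the low, medium and high Coptidis dose. FAM111B, UHRF1, E2F2, CCNE2, MCM3, RRM2 and PCNA step down with dose, CDC6 is highest at the high dose, and E2F1 is lowest at the medium dose.

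The fall was already present at the medium Coptidis dose. At 2.8 against 0.56 µg/mL, 45 of the 48 genes fell and none rose, where 5.89% of all genes tested fell and 7.68% rose, and the median log2 fold change was -0.37 with 0.00 over all genes. PRIM1, POLD1 and POLE were the 3 not called. FAM111B was at 14.1 and 12.98 CPM at the medium dose, against 30.04 and 26.4 CPM at the low dose (log2 fold change -1.06 ± 0.081, edgeR adjusted p = 5.58e-14). RRM2 was at 125 and 124 CPM at the medium dose, against 204 and 204 CPM at the low dose (log2 fold change -0.72 ± 0.037, edgeR adjusted p = 6.63e-20). For these genes each medium-dose library lay between the high-dose and the low-dose libraries. With the 2 divergent libraries kept in the fit, 13 of the 48 were called.

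From the medium to the high dose, a comparison added after the others had been seen, 41 genes fell further and 2 rose, where 29.5% of all genes fell and 30.7% rose. The median log2 fold change was -0.81, against -0.02 over all genes. FAM111B (-3.33 ± 0.15) and UHRF1 (-2.32 ± 0.060) fell most. CDC6 rose by 0.54 ± 0.044 (edgeR adjusted p = 1.58e-14) and MCM5 by 0.13 ± 0.050 (edgeR adjusted p = 0.0295). By group means, 43 of the 48 genes stepped down at each Coptidis dose. Under Bupleuri 35 did, under Aconiti 29, under Cimicifugae 24, under Citri 11 and under Zizyphi 6. The share of all genes that did so was not counted. Under Coptidis, CDC6, CDT1, MCM5, RPA2 and E2F1 had their lowest mean at the medium dose. CDC6 averaged 87.5 ± 0.959 CPM at the low dose, 79.8 ± 1.22 at the medium dose and 116 ± 1.63 at the high dose (SD, n = 2 each). Its fall at the medium dose (log2 fold change -0.13 ± 0.044) and its rise at the high dose were both called.

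**Figure D3:**
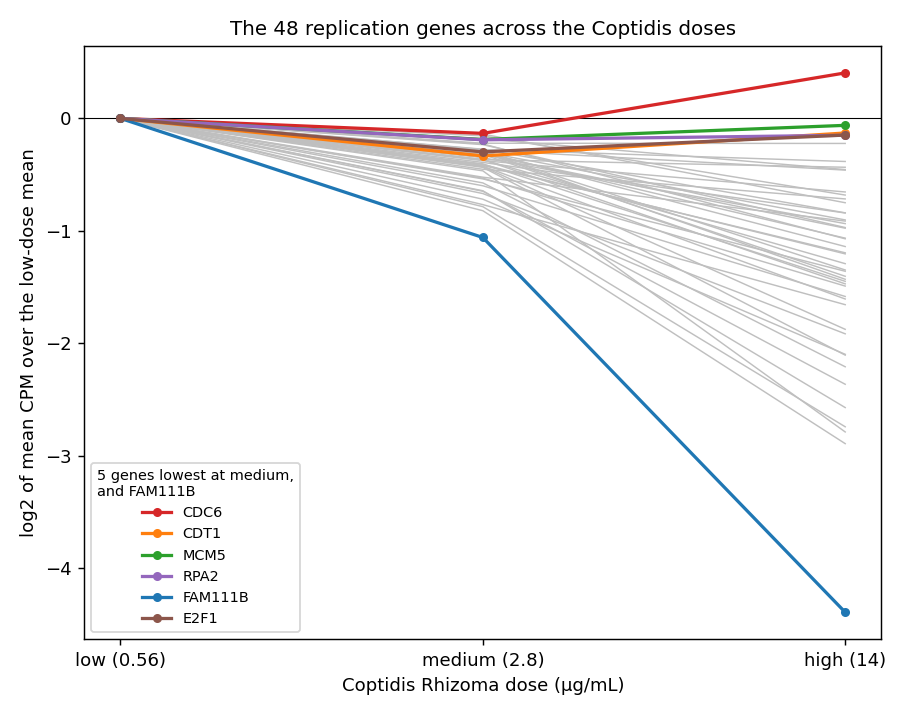
Log2 of each gene's mean CPM over its mean at the low Coptidis dose (y) at the 3 doses (x, µg/mL), with 1 line per gene. Most lines fall at each step, FAM111B to -4.39, while CDC6, CDT1, MCM5, RPA2 and E2F1 turn up after the medium dose.

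Against the vehicle, 46 of the 48 genes fell at the high Coptidis dose, where 32.6% of all genes did, and CDC6 rose, where 34% did. E2F1 was not called. FAM111B was at 1.19 and 1.503 CPM at the high dose, against 27.9, 26.9 and 24.8 CPM in the vehicle, and its log2 fold change was -4.30 ± 0.13 (edgeR adjusted p = 9.04e-30). CDC6 was at 117 and 115 CPM at the high dose, against 92.6, 88.3 and 88.9 CPM in the vehicle (log2 fold change 0.36 ± 0.040). The vehicle libraries carry none of the set numbers in the names of the extract libraries, so set and treatment cannot be told apart in any comparison with the vehicle. The doses of each extract carry 1 set number.

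Coptidis and Zizyphi share a set, and their dose effects were compared within it. The high dose was set by loss of viability for Coptidis (14 µg/mL) but not for Zizyphi (500 µg/mL). Extract and strength of the dose thus cannot be told apart in this difference. The high against low effect differed between them for 45 of the 48 genes, more negative under Coptidis for 44 and more positive for CDC6, where 27.2% and 28.1% of all genes differed in these directions. The median difference in log2 fold change, Coptidis minus Zizyphi, was -1.20. For FAM111B it was -4.10 ± 0.16 and for UHRF1 -2.65 ± 0.075, although both genes also fell under Zizyphi. CDT1, MCM5 and E2F1 showed no called difference.

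At the high dose of Bupleuri, 210 µg/mL, most of these genes were lower as well. Against the low dose, 42 of the 48 fell and none rose, where 18.6% of all genes fell and 20.6% rose, and the median log2 fold change was -0.30, against 0.00 over all genes. The summed level was 2320, 2365 and 2373 CPM at the high dose, against 2979, 2938 and 3025 CPM at the low dose. GMNN, MCM2, PRIM2, POLE, RPA2 and CCNE1 were not called. RRM2 was at 121, 119 and 122 CPM at the high dose, against 216, 214 and 217 CPM at the low dose (log2 fold change -0.84 ± 0.030, edgeR adjusted p = 3.29e-26). E2F2 was at 4.19, 4.004 and 3.44 CPM at the high dose, against 8.25, 8.17 and 7.61 CPM at the low dose (log2 fold change -1.04 ± 0.11, edgeR adjusted p = 1.68e-10). The 3 high-dose libraries lay below the 3 low-dose libraries for both genes. The 4 epithelial markers, mostly KRT18, summed to between 60.6 and 63.9 CPM at the high dose, against 230.7 to 255.5 CPM at the low dose, with EPCAM and CDH1 near 0. The 5 microglia and leukocyte markers summed to between 5.99 and 6.26 CPM at the high dose, against 15.9 to 17.55 CPM at the low dose. Astrocyte and neuron markers also had lower sums, at 4209 to 4344 against 4653 to 5087 CPM and 63.19 to 65.22 against 69.51 to 75.15 CPM. Endothelial and oligodendrocyte markers had higher sums, at 36.5 to 38.65 against 22.91 to 28.06 CPM and 7.729 to 8.518 against 6.647 to 7.045 CPM. The part of these markers in the result was not tested. With the 2 divergent libraries kept in the fit, 19 of the 48 were called.

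The genes with the largest falls under Bupleuri included 3 of the 4 of nucleotide supply. After E2F2 and RRM2, the lowest log2 fold changes were those of TK1 (-0.73 ± 0.060), TYMS (-0.67 ± 0.059) and FAM111B (-0.65 ± 0.062), followed by CDC45 (-0.58 ± 0.057). TYMS was at 57.3, 58.2 and 58.05 CPM at the high dose, against 87.2, 87.99 and 101 CPM at the low dose. FAM111B was at 17.9, 17.04 and 17.5 CPM at the high dose, against 29.6, 27.2 and 25.4 CPM at the low dose. Neither gene's groups overlapped. CDC6, which rose at the high Coptidis dose, fell here, at 73.02, 72.4 and 72.8 CPM at the high dose, against 92.2, 94.2 and 89.3 CPM at the low dose (log2 fold change -0.34 ± 0.035, edgeR adjusted p = 8.81e-11). E2F1 and CDT1 also fell, each by 1.33-fold. MCM3, lower 4.30-fold under Coptidis, was lower 1.197-fold under Bupleuri, and MCM7 fell 1.304-fold and 1.26-fold. Against the vehicle, 36 genes fell at the high Bupleuri dose, where 19.4% of all genes did, and CCNE1 rose by 0.16 ± 0.056, where 20.2% did, and 16 genes were called with the 2 divergent libraries kept.

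Aconiti, the processed aconite root of the same set, had 14 of the 48 genes lower at its high dose and none called higher, where 5.25% of all genes fell and 4.28% rose. The median log2 fold change was -0.11, against 0.00 over all genes. FAM111B was at 21.8 and 23.2 CPM at the high dose, against 31.02, 29.6 and 29.6 CPM at the low dose (log2 fold change -0.41 ± 0.067, edgeR adjusted p = 1.37e-05). POLA1 was at 51.7 and 50.7 CPM at the high dose, against 64.6, 61.1 and 64.7 CPM at the low dose (log2 fold change -0.31 ± 0.056, edgeR adjusted p = 7.72e-05). Both were lower in each of the 2 high-dose libraries than in any low-dose library. UHRF1 (-0.23 ± 0.042), MCM4 (-0.19 ± 0.034), MCM7 (-0.16 ± 0.035) and MCM6 (-0.22 ± 0.048) came next by p, and the others called were TK1, GINS2, RRM2, ORC1, DTL, LIG1, PRIM2 and TYMS. The epithelial markers summed to 151.6 and 156.3 CPM at the high dose, against 221.9 to 227.7 CPM at the low dose. The leukocyte markers summed to 11.33 and 11.47 CPM at the high dose, against 16.77 to 18.05 CPM at the low dose, and their part in the result was not tested. Without Aconiti high replicate 3, 7 genes were called, and with the 2 divergent libraries kept, 8.

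The dose effects of Bupleuri and Aconiti differed for 27 of the 48 genes, more negative under Bupleuri for 25, where 10.5% of all genes were, and more positive for MCM2 and PRIM2, where 13% were. E2F2 (-0.77 ± 0.16) and RRM2 (-0.71 ± 0.044, edgeR adjusted p = 5.33e-17) differed most. FAM111B was not among the called differences, and POLA1 was not either. With the 2 divergent libraries kept, 13 differences were called. The high dose was set by loss of viability for Bupleuri but not for Aconiti, so extract and strength of the dose cannot be told apart. CDC6 differed by -0.32 ± 0.053: it was at 90.1 and 93.2 CPM at the high Aconiti dose, against 92.6, 90.5 and 94.7 CPM at the low Aconiti dose.

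Yijung-tang had 1 low-dose library left, so its high dose was tested against its medium dose. Of the 48 genes, 15 fell and none rose, where 5.05% of all genes fell and 4.11% rose, and the median log2 fold change was -0.15, against 0.00 over all genes. RRM2 was at 164 and 161 CPM at the high dose, against 218 and 218 CPM at the medium dose (log2 fold change -0.43 ± 0.036, edgeR adjusted p = 3.74e-12). UHRF1 was at 65.8 and 65.96 CPM at the high dose, against 84.6 and 86.2 CPM at the medium dose (log2 fold change -0.37 ± 0.045, edgeR adjusted p = 5.76e-08). MCM7 was at 184 and 186 CPM at the high dose, against 218 and 232 CPM at the medium dose (log2 fold change -0.28 ± 0.038, edgeR adjusted p = 7e-07). No high-dose library overlapped a medium-dose library for these genes. FAM111B, TYMS, GINS1, ORC6, CDC45, RFC2, RRM1, POLA1, PCNA, CLSPN, MCM6 and DTL also fell. The 1 low-dose library had RRM2 at 211 and UHRF1 at 86.02 CPM, near the medium dose. The epithelial markers summed to 119.7 and 125 CPM at the high dose, against 194.9 and 200.6 CPM at the medium dose. The leukocyte markers summed to 10.16 and 10.62 CPM at the high dose, against 16.21 and 16.59 CPM at the medium dose, and their part in the result was not tested. The count was 7 without high replicate 1, 9 without high replicate 2, 7 without medium replicate 2 and 0 with the 2 divergent libraries kept.

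Cimicifugae, the rhizome of a bugbane, had 7 of the 48 genes lower at the high against the low dose and none called higher, where 5.81% of all genes fell and 4.88% rose. The median log2 fold change was -0.09. UHRF1 was at 64.8, 67.8 and 65.9 CPM at the high dose, against 81.4, 77.3 and 81.2 CPM at the low dose (log2 fold change -0.27 ± 0.038, edgeR adjusted p = 8.64e-07). FAM111B was at 22.8, 22.9 and 22 CPM at the high dose, against 31.3, 29.4 and 29.7 CPM at the low dose (log2 fold change -0.42 ± 0.061, edgeR adjusted p = 2.92e-06). MCM7 was at 197, 194 and 196 CPM at the high dose, against 217, 211 and 214 CPM at the low dose (log2 fold change -0.13 ± 0.031, edgeR adjusted p = 0.00468). The high-dose libraries were lower throughout. MCM6, RRM2, RFC3 and PCNA were the others called. The epithelial markers summed to between 121 and 124.1 CPM at the high dose, against 185 to 200.9 CPM at the low dose. The leukocyte markers summed to between 10.98 and 13.3 CPM at the high dose, against 16.67 to 17.58 CPM at the low dose. The part of either in the result was not tested. The count was 4 of 48 without high replicate 1 or without high replicate 3 and 0 with the 2 divergent libraries kept.

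Few of these genes were called under Citri, a citrus peel, and Zizyphi, the jujube fruit. Under Citri, UHRF1, FAM111B and MCM2 fell and GINS1, POLD3 and DTL rose, where 7.34% of all genes fell and 6.44% rose. UHRF1 was at 71.5, 68.9 and 70.1 CPM at the high dose, against 83.3, 80.4 and 79.5 CPM at the low dose (log2 fold change -0.21 ± 0.037, edgeR adjusted p = 7.5e-05). FAM111B was at 23.6, 22.1 and 23.04 CPM at the high dose, against 28.3, 27.3 and 28.1 CPM at the low dose (log2 fold change -0.28 ± 0.060, edgeR adjusted p = 0.000703). GINS1 was at 38.8, 39.9 and 37.02 CPM at the high dose, against 33.0, 35.1 and 34.01 CPM at the low dose (log2 fold change 0.18 ± 0.056, edgeR adjusted p = 0.0276). UHRF1, FAM111B and GINS1 each had their groups apart. Epithelial markers summed to between 133.4 and 145 CPM at the high dose, against 219.3 to 221.1 CPM at the low dose. Leukocyte markers summed to between 11.87 and 14.11 CPM at the high dose, against 17.09 to 17.37 CPM at the low dose. The part of either in the result was not tested. The 6 calls under Citri became 3 without low replicate 1, low replicate 2 or high replicate 3, 2 without low replicate 3, 3 with no filter on low counts and 0 with the 2 divergent libraries kept.

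Under Zizyphi, FAM111B and UHRF1 fell and ORC6, RFC4 and RRM2 rose, where 4.28% of all genes fell and 3.12% rose. ORC6 was at 39.2 and 43.4 CPM at the high dose, against 35.5 and 33.3 CPM at the low dose (log2 fold change 0.26 ± 0.066, edgeR adjusted p = 0.0082). FAM111B was at 24.1 and 26.99 CPM at the high dose, against 29.7 and 32.8 CPM at the low dose (log2 fold change -0.29 ± 0.072, edgeR adjusted p = 0.00837). RRM2 was at 226 and 238 CPM at the high dose, against 210.4 and 214 CPM at the low dose (log2 fold change 0.13 ± 0.036, edgeR adjusted p = 0.0145). The doses did not overlap for these 3 genes. Leukocyte markers summed to 13.08 and 13.9 CPM at the high dose, against 17.76 and 18.26 CPM at the low dose. Epithelial markers summed to 182.8 and 194.6 CPM at the high dose, against 204.5 and 218.6 CPM at the low dose. The part of either in the result was not tested. The 5 calls rested on single libraries: 2 were made without high replicate 2 or low replicate 2, 1 without high replicate 3 and 0 without low replicate 3. There were 3 with DESeq2, 2 with no filter on low counts, and 0 in a fit of the compared groups alone or with the 2 divergent libraries kept. The dose effects of Citri and Cimicifugae, which share a set, differed by a called amount only for RRM2 (Citri minus Cimicifugae 0.17 ± 0.041, edgeR adjusted p = 0.0216), where 0.322% of all genes were higher and 0.752% lower in that difference. That call was lost without Citri low replicate 1, Citri low replicate 2, Cimicifugae high replicate 1 or Cimicifugae low replicate 2.

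Among the 48, FAM111B and UHRF1 were the genes called lower in all 7 tested extracts at the high dose, 6 against their low dose and Yijung-tang against its medium dose. How many of all genes tested were called lower in as many extracts was not counted, so the counts of extracts given here have no background share. The call of UHRF1 under Zizyphi (edgeR adjusted p = 0.0498) was lost without any 1 of its 4 libraries, with DESeq2, with no filter on low counts and with the compared groups alone. That of FAM111B under Zizyphi was lost without high replicate 2, without low replicate 3 and with the compared groups alone. With the 2 divergent libraries kept, no gene of the 48 was called under Zizyphi, Citri, Cimicifugae or Yijung-tang. FAM111B was then not called under Bupleuri (-0.65, edgeR adjusted p = 0.23) or Aconiti (-0.91, edgeR adjusted p = 0.0729), and UHRF1 under Aconiti was at 0.02 and not called. FAM111B thus stayed called in that fit under Coptidis alone, and UHRF1 under Coptidis and Bupleuri. MCM6, MCM7 and RRM2 fell in 5 extracts, and DTL, PCNA, POLA1 and TYMS in 4. At the other end, CDC6, CDT1, GMNN, MCM5, POLE, RPA2, CCNE1 and E2F1 each fell in 1. No gene of the 48 rose in more than 1 extract, although GINS1, POLD3 and DTL rose under Citri, ORC6, RFC4 and RRM2 under Zizyphi and CDC6 under Coptidis.

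**Figure D4:**
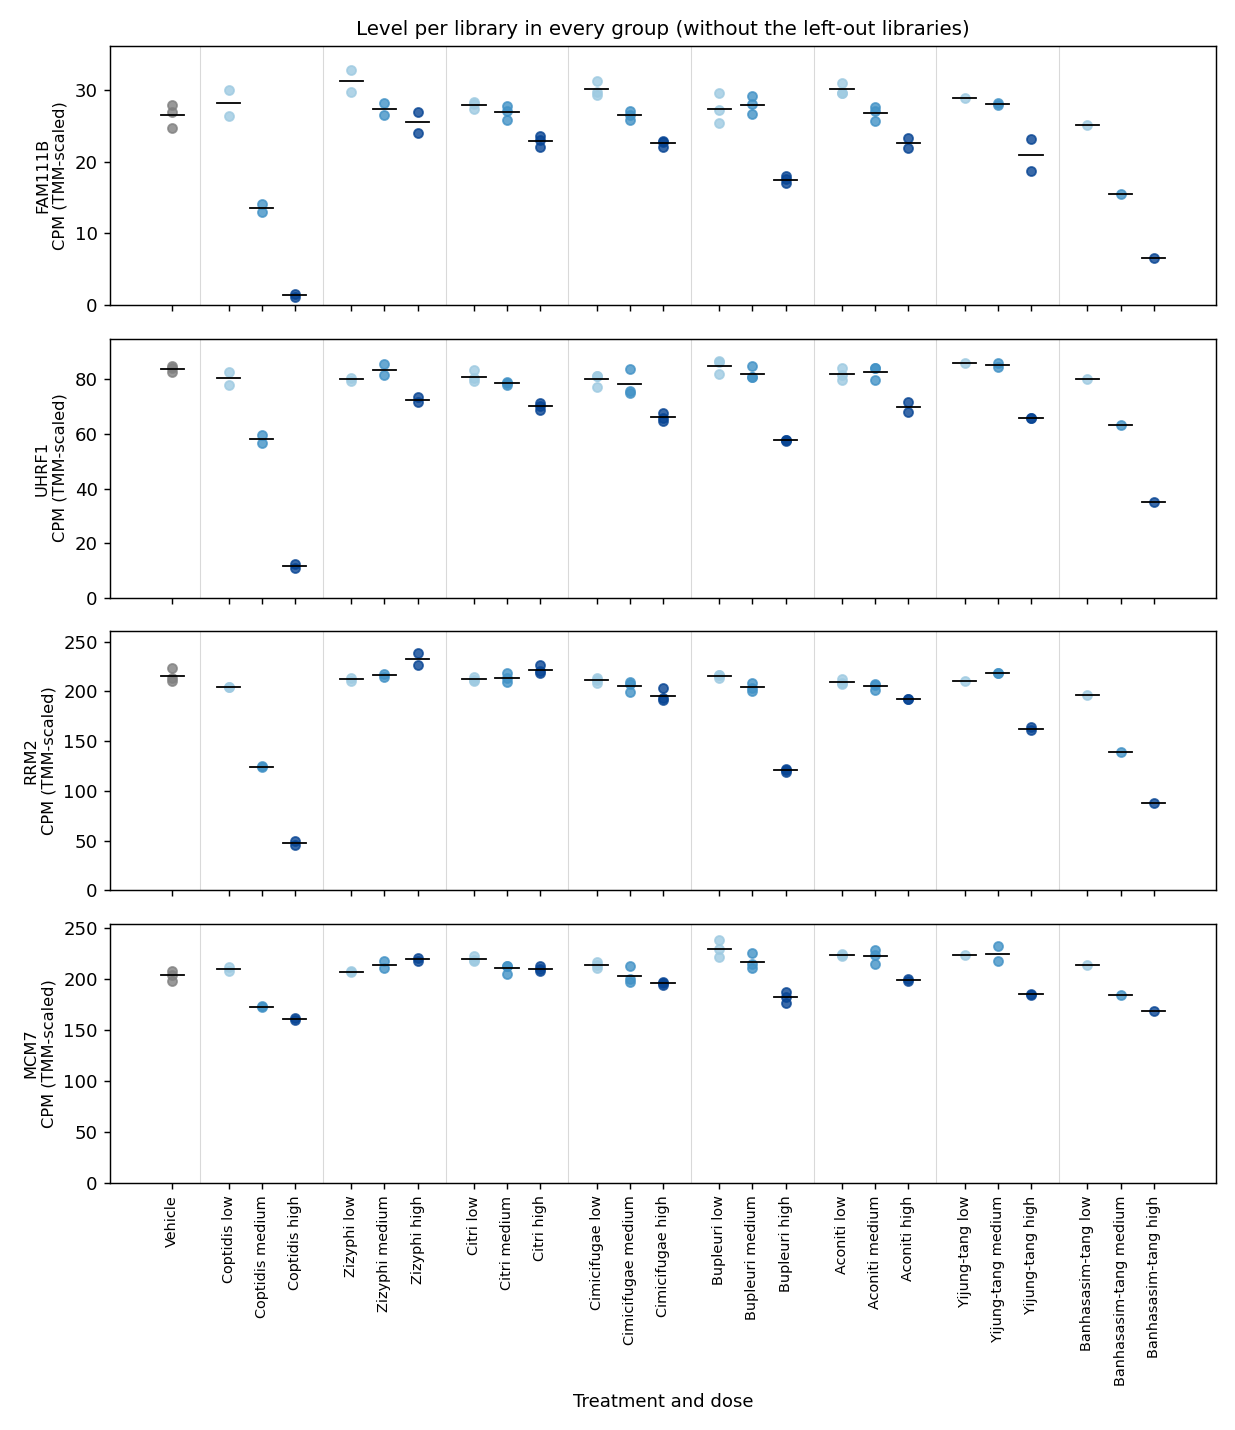
CPM per library (points, darker with dose) and group mean (lines) of FAM111B, UHRF1, RRM2 and MCM7 in the vehicle and in each extract at its low, medium and high dose, without the 2 divergent libraries. The high Coptidis dose holds the lowest value of each gene, and the 3 Banhasasim-tang libraries step down with dose.

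At the medium dose, none of the 48 genes was called against the low dose under Zizyphi, Citri, Cimicifugae, Bupleuri or Aconiti with edgeR, where 0.00566%, 0.00566%, 0.385%, 0.368% and 0.0509% of all genes were. The share of all genes with an unadjusted p under 0.05 was 5.63%, 6.8%, 10.4%, 10.5% and 5.33%. Of the 48, 3, 6, 14, 12 and 5 had an unadjusted p under 0.05 in these extracts, and DESeq2 called 0 in each. The medians of the 48 lay between -0.06 and 0.02. For Bupleuri, at whose high dose 42 genes fell, 38 of the 48 had a negative log2 fold change at the medium dose, with a median of -0.05 and a lowest value of -0.18. Under Cimicifugae, at whose high dose 7 fell, 37 were negative, with a median of -0.06 and a lowest value of -0.19. Under Aconiti, Citri and Zizyphi 32, 31 and 20 were negative. The share of all genes with a negative value was not counted, and the medians of all genes lay between -0.004 and 0.002. Without Bupleuri low replicate 2, 3 genes were called, and with no filter on low counts 1.

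Banhasasim-tang is a formula whose traditional recipe includes Coptidis rhizome and jujube. With 1 library per dose its values have no test, and differences are of log2 CPM with a prior count of 2. At the low, medium and high dose the 48 genes summed to 2825, 2350 and 1933 CPM, against 2824 to 2961 CPM in the vehicle libraries. The median log2 difference from the vehicle mean was -0.001 at the low dose, -0.25 at the medium dose and -0.51 at the high dose, while that of all genes was 0.00, 0.00 and 0.01. At the high dose 47 of the 48 lay below every vehicle library, where 39.4% of all genes did, and CDC6 lay above. FAM111B was at 25.2, 15.6 and 6.61 CPM at the low, medium and high dose. UHRF1 was at 80.2, 63.1 and 35.2 CPM. CDC6 was at 92.2, 81.7 and 100.4 CPM, so its lowest value was at the medium dose, as under Coptidis. MT-RNR2 took 3.35%, 7.96% and 6.09% of the counts in these libraries at the low, medium and high dose, and the leukocyte markers summed to 17.09, 13.25 and 5.045 CPM. The part of either in the result was not tested.

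**Figure D5:**
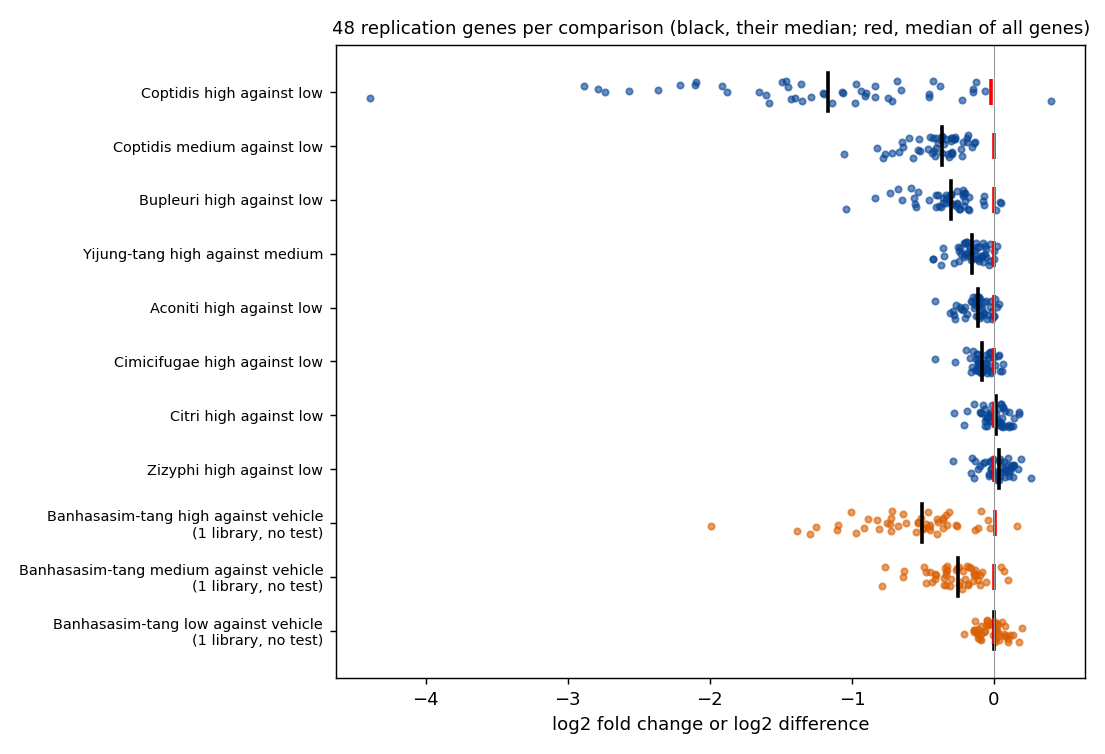
Log2 fold changes (blue, 8 tested comparisons) or log2 differences (orange, Banhasasim-tang against the vehicle, 1 library each) of the 48 genes, 1 point per gene on the x axis, with vertical position spread at random within a row. Black bars mark the median of the 48, from -1.17 for Coptidis high against low to 0.04 for Zizyphi, and red bars the median of all genes, which lies near 0 throughout.

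The low doses together, compared with the vehicle as an equal-weight mean of the 6 herbs, differed little in these genes. MCM6 (-0.11 ± 0.034) and FEN1 (-0.10 ± 0.039) were lower, where 14.7% of all genes were, and 9 genes were higher, where 11% were. E2F2 (0.31 ± 0.088), EXO1 (0.18 ± 0.047) and DTL (0.18 ± 0.030) had the largest positive log2 fold changes. Without vehicle replicate 2 the count was 7, and with the 2 divergent libraries kept it was 0. At the high dose against the same vehicle, 3 genes fell and 13 rose under Zizyphi (12% and 9.64% of all genes), 7 and 12 under Citri (17.1% and 14.3%), and 11 and 4 under Cimicifugae (19.2% and 16.5%). For Aconiti 9 fell and POLD1 rose (15% and 12.7% of all genes), and for Yijung-tang 17 fell and POLD1 rose (16.7% and 14.1%). With the 2 divergent libraries kept, 0 genes were called under Zizyphi, Citri and Cimicifugae and 1 under Yijung-tang. These comparisons share the vehicle libraries and also hold the difference in set. Counts changed by more than 1.5-fold without Zizyphi high replicate 2 (9 in place of 16) or 3 (10), and without Yijung-tang high replicate 2 (11 in place of 18).

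Other genes of the pathway, from lists that hold none of the 48, were counted in the same fit. Beside their counts stand the shares of all genes that fell and rose. Of 37 other replication genes, 22 fell and 9 rose at the high against the low Coptidis dose (32.4% and 33.2% of all genes), with a median of -0.40. ASF1B, a histone chaperone, averaged 9.51 ± 0.86 CPM at the high dose and 51.5 ± 1.67 CPM at the low dose (SD, n = 2 each), a log2 fold change of -2.43 ± 0.088. HELLS, a chromatin remodeller, had a log2 fold change of -1.90 ± 0.085, and NASP, a histone chaperone, had -0.88 ± 0.040. Under Bupleuri 20 of the 37 fell and 1 rose (18.6% and 20.6% of all genes), with ASF1B at -0.76 ± 0.055, HELLS at -0.49 ± 0.056 and RECQL4, a helicase of origin firing, at -0.43 ± 0.055. Under Aconiti 3 of the 37 fell and none rose (5.25% and 4.28% of all genes). Among them were RPA1, the large subunit of the single-strand binding protein (-0.16 ± 0.044), and ORC3, an origin recognition subunit (-0.17 ± 0.053). TIMELESS, a fork protection gene, was at -0.10 ± 0.043, which was not called. Of 14 genes for the repair of replication damage, 14 fell under Coptidis, 9 under Bupleuri, where 1 rose, and 1 under Aconiti. All 15 G2/M genes fell under Coptidis and under Bupleuri, and 13 under Yijung-tang (5.05% of all genes). Of the 15, 6 rose under Zizyphi (3.12% of all genes) and 7 under Citri (6.44% of all genes). Under Aconiti their median was -0.05.

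The 29 tested cyclin, E2F and RB regulators moved both ways, 15 lower and 12 higher at the high against the low Coptidis dose, where 32.4% and 33.2% of all genes were. E2F7, a repressor E2F, averaged 362 ± 14.99 CPM at the high dose and 96.6 ± 0.016 CPM at the low dose (SD, n = 2 each), a log2 fold change of 1.91 ± 0.045 (edgeR adjusted p = 1e-33). MYC, a growth regulator, rose by 1.92 ± 0.062, while CCNA2, the S and G2 phase cyclin (-2.36 ± 0.061), and CDKN2C, an inhibitor of CDK4 and CDK6 (-3.28 ± 0.090), fell. Under Bupleuri 11 of the 29 fell and 7 rose (18.6% and 20.6% of all genes), with E2F7 at 0.97 ± 0.036, CDKN2C at -1.27 ± 0.058, CCND1, a G1 cyclin, at 0.87 ± 0.041 and CCNA2 at -0.80 ± 0.041. Under Aconiti 4 of the 29 fell and 6 rose (5.25% and 4.28% of all genes), led by CCND1 (0.56 ± 0.045), E2F7 (0.40 ± 0.041), CDKN1A, the CDK inhibitor p21 (0.39 ± 0.064), and MYC (0.30 ± 0.059). CDKN1A also rose under Coptidis (1.26 ± 0.070), under Bupleuri (0.63 ± 0.056) and at the high against the medium dose of Yijung-tang (0.41 ± 0.070). E2F7 thus rose at the high dose of Coptidis, Bupleuri and Aconiti, while E2F2 fell under Coptidis and Bupleuri and was not called under Aconiti. Yijung-tang, at its high against its medium dose, also had E2F7 higher (0.24 ± 0.045) and E2F2 not called.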

How the data were processed

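Total RNA of SW1783 cells was made into directional mRNA libraries and sequenced as 100 bp paired ends, per the labels' protocols. The deposited table holds expected counts per gene, made by the authors. The submitters' processing notes name RSEM 1.3.3 and STAR 2.7.3a, the build hg38, and the read tools Trim Galore 0.6.5 and FastQC 0.11.9. Neither annotation nor strand setting is stated in them. Of the values, 9.18% were not whole, and all were rounded to whole numbers. No column of values was left unmapped. The series text puts the vehicle's DMSO at 2%, the labels of the samples at 0.1%.

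The 54 libraries of 21 groups with at least 2 libraries, without the 2 divergent ones, entered 1 group-means fit. Genes passed filterByExpr at a minimum count of 10, were scaled by TMM and tested with edgeR 4.0.16 (glmQLFit, glmQLFTest) in R 4.3.3, with Benjamini-Hochberg adjustment over all 17680 genes in each of 25 comparisons, 24 of them planned. The standard error is the size of the log2 fold change divided by the square root of F. Replicates were compared by chi-square of their counts, which per degree of freedom, among the libraries kept, lay between 1.93 and 16.1, so none was taken as 1 library deposited again. Alternatives were DESeq2 1.42.0 (size factors, and its test), no filter, a replicate block, the compared groups alone, each library left out, and the 2 divergent libraries kept.

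The members, lists and comparisons were chosen with earlier results of these data known. Per library values are given for the 2 genes per role with the largest called change under Coptidis, for genes called higher at the high dose of Coptidis, Bupleuri or Aconiti, and for the 3 smallest p under each of the other extracts. Under Bupleuri and Aconiti they are given for some of these genes, picked after their values were seen, and the lists name the 4 smallest p, of which 1 gene is not reported here. Other genes are named after their values were seen. Overlapping genes come from GENCODE v29. Scripts were tested on simulated data. A simulated 1.2-fold change was called for 40% of such genes in the Coptidis high against low comparison and 58% in that of Bupleuri. Genes not called may thus hold changes of that size. Of all calls in the simulation, 2 of 142 and 12 of 179 were false. The data gave 11599 and 6926 calls in these comparisons, so the same adjusted p allowed larger unadjusted p there. The simulated shares of called and false genes thus need not hold for the data.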

Additional observations from a re-analysis of the deposited data

Results flagged for a closer look

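Extracts of 1 set had different effects of the high against the low dose on these genes, tested as the difference of the dose effects with edgeR. The high dose was set by loss of viability for Coptidis and Bupleuri but not for Zizyphi and Aconiti. Extract and strength of the dose thus cannot be told apart in these 2 differences. For Coptidis minus Zizyphi 45 of the 48 genes passed, 44 more negative under Coptidis and 1 more positive, where 27.2% and 28.1% of all genes were. For Bupleuri minus Aconiti 27 passed, 25 more negative under Bupleuri and 2 more positive, where 10.5% and 13% of all genes were. For Citri minus Cimicifugae 1 passed, RRM2, higher by 0.17 ± 0.041 on the log2 scale under Citri, where 0.322% of all genes were higher.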

How the results depend on the processing

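The counts of called genes at the high against the low dose of Coptidis (44 to 46) and Bupleuri (40 to 42) held with each library left out, as did the medium against the low (35 to 41) and the high against the medium dose of Coptidis (40 to 42), its high dose against the vehicle (46 to 47) and its difference from Zizyphi (45). Wider ranges were those of Zizyphi (0 to 2 in place of 5), Citri (2 to 4 in place of 6), Cimicifugae (4 to 6 in place of 7), Aconiti (7 to 13 in place of 14), Yijung-tang (7 to 14 in place of 15) and medium Bupleuri (0 to 3 in place of 0). The same holds against the vehicle for Zizyphi (9 to 12 in place of 16), Yijung-tang (11 to 17 in place of 18) and the mean of the low doses (7 to 11 in place of 11), and for Citri minus Cimicifugae (0 to 1). With the 2 divergent libraries kept, the counts were 0 for Zizyphi, Citri, Cimicifugae and Yijung-tang, 19 for Bupleuri, 8 for Aconiti and 13 for medium Coptidis. Against the vehicle they were 0 for Zizyphi, Citri, Cimicifugae and the low doses, 16 for Bupleuri and 1 for Yijung-tang, and for the differences 0 for Citri minus Cimicifugae and 13 for Bupleuri minus Aconiti. Under Aconiti, MCM7 (0.17), LIG1 (0.12), TK1 (0.067) and UHRF1 (0.02) then had positive log2 fold changes, as had FEN1 (0.001) against the vehicle, in fits that hold the added library. With no filter on low counts the counts were 2 for Zizyphi, 3 for Citri, 1 for medium Bupleuri, 10 for Zizyphi against the vehicle and 0 for Citri minus Cimicifugae. With DESeq2's test there were 3 for Zizyphi, and in fits of the compared groups alone 0 for Zizyphi and 0 for Citri minus Cimicifugae. The cause of the changes without a filter, with DESeq2 and with groups alone was not tested. Deviations from the group means, in samples with the same replicate number, had correlations of -0.07 to 0.14, and the samples were treated as unpaired. The correlations ran over all genes together, so they cannot exclude a pairing seen in a part of the genes. The replicate block gave 2 in place of 1 for Citri minus Cimicifugae and changed no other count by over 1.5 times. Of 339 called gene and comparison pairs, 337 kept their call under the block, 337 with DESeq2's size factors, 320 with its test, 300 without a filter and 173 with the divergent libraries kept.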
